A study of Mus musculus with 12 samples.

Results

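Nalcn, Col5a3, Sorl1, Crip1, Pipox and Haao are 6 genes whose mean transcript level was highest in Eµ-Myc lymphoma cells that had reached lymph nodes through the blood. They were chosen by measured values: the mean level of a listed gene had to be highest in the hematogenous libraries and at least 4-fold over the lymphatic mean. Levels are read counts scaled to library size (CPM, relative to assigned reads), with library sizes scaled by the trimmed mean of M values (TMM). The files list them as ENSMUSG00000000197.9 (Nalcn), ENSMUSG00000004098.8 (Col5a3), ENSMUSG00000049313.9 (Sorl1), ENSMUSG00000006360.12 (Crip1), ENSMUSG00000017453.5 (Pipox) and ENSMUSG00000000673.10 (Haao). All 6 met the rule, among 13535 genes with enough counts for a test and 56748 gene IDs in all. Of the genes tested, 81 met it, which is 0.598%, so the 6 are a selection from a larger set. Because the rule used the levels in all 3 groups, the differences of the 6 genes are given below as a description, without a test.

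The cells are mouse B lymphoma cells of an Eµ-Myc line, in which a transgene drives Myc from the immunoglobulin heavy chain enhancer in the B lineage. The hematogenous group holds 4 libraries of lymphoma cells sorted from lymph nodes of C57BL/6J mice at day 18 after injection, following spread through the blood. The lymphatic group holds 4 libraries sorted from lymph nodes at day 11, following spread through lymphatic vessels, and the culture group holds 4 libraries of cells taken from culture. All 3 groups carry the same transgene, and the labels give no further allele or agent, no age of the mice and no sort marker. Route and day differ together between both lymph node groups, so they cannot be told apart. The labels do not say whether the 4 libraries of a group came from separate mice or cultures, so p-values measure the spread between these libraries, which may be technical.

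The 6 genes have unrelated products. NALCN is the sodium leak channel, a large pore-forming protein best known for holding the resting membrane potential of neurons, where it works in a complex with UNC79, UNC80 and NALF1. COL5A3 is a chain of type V collagen, a fibrillar collagen of connective tissue. SORL1, also called SORLA, is a sorting receptor with domains shared with the sortilin and lipoprotein receptor families, and it carries cargo between the Golgi and endosomes together with retromer, GGA and AP-1 adaptors. CRIP1 is a small zinc-binding LIM domain protein that is abundant in intestine and in immune cells. PIPOX is a peroxisomal oxidase of sarcosine and pipecolate that makes hydrogen peroxide. HAAO turns 3-hydroxyanthranilate into the precursor of quinolinate, a late step of the kynurenine route from tryptophan to NAD.

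The promoter windows of the 6 genes were read from RefSeq (assembly GRCm38.p6), 250 bases before to 50 after each annotated start, with 2 windows for Sorl1 and 1 for each other gene. The files use another build, so these coordinates belong to the RefSeq table. The E-box CAGCTG, a letter pattern bound by E proteins of the B lineage among other factors, was present in 3 of these 7 windows and in 16.3% of all 32851 windows of the same length. It is its own reverse complement, so both strands are read at once. The 3 windows are shown because they hold this pattern; all lie on the minus strand and are written 5′ to 3′ along the gene, and capitals mark CAGCTG and, in Pipox, also CCACCC.
Nalcn, chr14:123627095-123627394: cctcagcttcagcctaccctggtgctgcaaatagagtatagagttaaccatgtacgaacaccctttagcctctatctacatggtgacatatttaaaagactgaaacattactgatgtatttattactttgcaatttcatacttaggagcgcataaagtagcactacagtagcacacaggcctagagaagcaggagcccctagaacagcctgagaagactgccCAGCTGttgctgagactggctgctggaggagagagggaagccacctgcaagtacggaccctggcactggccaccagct
Col5a3, chr9:20815018-20815317: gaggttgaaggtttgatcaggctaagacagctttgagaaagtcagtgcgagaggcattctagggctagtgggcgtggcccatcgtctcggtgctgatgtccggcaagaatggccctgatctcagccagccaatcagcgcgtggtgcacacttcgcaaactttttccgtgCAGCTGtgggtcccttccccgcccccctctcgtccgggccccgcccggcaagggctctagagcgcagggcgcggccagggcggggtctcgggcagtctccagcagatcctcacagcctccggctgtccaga
Pipox, chr11:77893823-77894122: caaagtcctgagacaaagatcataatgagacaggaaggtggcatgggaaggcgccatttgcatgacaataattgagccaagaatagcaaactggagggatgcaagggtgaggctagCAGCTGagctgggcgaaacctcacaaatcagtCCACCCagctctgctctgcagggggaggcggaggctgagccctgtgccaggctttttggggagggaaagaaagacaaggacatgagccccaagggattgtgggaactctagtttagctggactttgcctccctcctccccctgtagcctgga
The pattern begins 28 bases before the start in Nalcn, 81 before it in Col5a3 and 134 before it in Pipox. The windows differ in composition: Col5a3 has 20 CpG dinucleotides, while Nalcn and Pipox have 3 each, against a median of 7 over all windows.

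Of the other letter patterns searched on both strands, the E-box CACGTG known for MYC and MAX was present in 1 of the 7 windows, at one of both Sorl1 starts, and in 7.15% of all windows. CCACCC, a pattern of KLF and SP factors, was present in the windows of Crip1 and Pipox and in 31.5% of all windows. The ETS pattern GGAAGT and the STAT pattern TTCNNNGAA were each present in 1 window, both of Sorl1, and in 23.8% and 8.3% of all windows. The RUNX pattern TGTGGT was in none of the 7 and in 16.8% of all, and the Haao window held none of the 6 patterns. These matches describe letters in these windows and say nothing of binding.

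Nalcn had 215, 190, 203 and 233 CPM in hematogenous libraries 1 to 4, against 38.2, 33.4, 31.8 and 29.4 CPM in the lymphatic libraries and 1.32, 0.693, 1.39 and 1.72 CPM in culture. The 3 groups were far apart and did not overlap, with the lowest hematogenous library 4.96-fold above the highest lymphatic one. The mean was 210 ± 18.5 CPM in hematogenous, 33.2 ± 3.72 CPM in lymphatic and 1.28 ± 0.431 CPM in culture libraries (SD, n = 4 each). The hematogenous mean was thus 6.33-fold the lymphatic and 164-fold the culture mean, and the lymphatic mean was 25.9-fold the culture mean. Nalcn is the member with the steadiest hematogenous level, at a coefficient of variation of 8.81%, and its mean there stood at the 93.0th percentile of the genes tested.

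Col5a3 had 16.8, 23.2, 9.18 and 13.5 CPM in hematogenous libraries 1 to 4, against 0.203, 0.0398, 0.551 and 0.224 CPM in the lymphatic ones. In culture no read was assigned to it in any of the 4 libraries. The lymphatic values rest on 3, 1, 7 and 4 reads, while the hematogenous libraries hold 651 reads in sum. The hematogenous mean of 15.7 ± 5.91 CPM was 61.6-fold the lymphatic mean of 0.254 ± 0.214 CPM (SD, n = 4 each), the largest fitted log2 difference of the 13535 genes tested, 6.08 ± 0.515 (SE). A count of 0 over the culture group allows a level of up to 0.0818 CPM, taken as 3 reads over its 4 libraries. With the other means taken as measured, hematogenous was at least 191-fold and lymphatic at least 3.11-fold that of culture. This bound covers counting error in the culture group only. It leaves out that of the lymphatic mean, which rests on 15 reads in sum. Despite the fold, Col5a3 is a gene of moderate level, at the 43.5th percentile of hematogenous means.

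Sorl1 had 161, 115, 162 and 146 CPM in hematogenous libraries 1 to 4, against 27.1, 27.1, 30.8 and 16.9 CPM in the lymphatic libraries and 22.6, 23.2, 26.2 and 24.0 CPM in culture. It was high in the hematogenous group alone: the lymphatic and culture libraries overlapped, and the lowest hematogenous library was 3.73-fold above the highest lymphatic one. Means were 146 ± 22.1 CPM in hematogenous, 25.5 ± 5.98 CPM in lymphatic and 24.0 ± 1.56 CPM in culture libraries (SD, n = 4 each). The hematogenous mean was 5.73-fold the lymphatic and 6.08-fold the culture mean, whereas the lymphatic mean was 1.06-fold that of culture. On the log2 scale the lymphatic minus culture difference was 0.084 ± 0.172 (SE), and it turned to -0.016 without lymphatic library 3. An annotated antisense gene, Gm16214, overlaps Sorl1 and held 100, 59 and 10 reads in the hematogenous, lymphatic and culture libraries, against 5810, 1775 and 878 reads for Sorl1 itself. Whether counting used the strand is not given in the sources used here.

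Crip1 had 329, 225, 296 and 246 CPM in hematogenous libraries 1 to 4, against 29.0, 13.0, 38.7 and 77.8 CPM in the lymphatic libraries and 20.7, 16.5, 16.3 and 16.3 CPM in culture. Lymphatic library 4 was the highest of its group and lymphatic library 2 lay below all culture libraries, so these groups overlapped, whereas every hematogenous library was at least 2.90-fold above every lymphatic one. Means were 274 ± 47.0 CPM in hematogenous, 39.6 ± 27.6 CPM in lymphatic and 17.5 ± 2.18 CPM in culture libraries (SD, n = 4 each). The hematogenous mean was 6.92-fold the lymphatic mean, or 10.2-fold without lymphatic library 4, and 15.7-fold the culture mean. Lymphatic library 4 also had the highest summed level of T cell markers, 124 CPM against 37.1 to 61.5 CPM in the other lymphatic libraries, and the part of other cells in its Crip1 level was not tested. Per kilobase of exon, Crip1 had the highest level of the 6 genes, at 380 CPM per kb in the hematogenous group, against 29.5 for Nalcn, 17.6 for Haao, 14.7 for Pipox, 13.6 for Sorl1 and 2.56 for Col5a3.

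Pipox had 30.1, 12.2, 29.2 and 46.1 CPM in hematogenous libraries 1 to 4, against 5.33, 4.50, 4.17 and 5.61 CPM in the lymphatic libraries and 2.64, 1.91, 2.90 and 2.64 CPM in culture. The groups did not overlap, but the hematogenous libraries were spread widely, the highest being 3.78-fold the lowest. Means were 29.4 ± 13.8 CPM in hematogenous, 4.90 ± 0.680 CPM in lymphatic and 2.52 ± 0.427 CPM in culture libraries (SD, n = 4 each). The hematogenous mean was 5.99-fold the lymphatic and 11.7-fold the culture mean, and the lymphatic mean was 1.94-fold the culture mean.

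Haao had 28.4, 20.5, 27.1 and 25.8 CPM in hematogenous libraries 1 to 4, against 3.71, 2.75, 8.50 and 5.50 CPM in the lymphatic libraries and 0.699, 1.04, 0.322 and 0.690 CPM in culture. As for Nalcn, the groups stood in 3 separate steps. Means were 25.5 ± 3.49 CPM in hematogenous, 5.11 ± 2.53 CPM in lymphatic and 0.688 ± 0.293 CPM in culture libraries (SD, n = 4 each), so the hematogenous mean was 4.98-fold the lymphatic and 37.0-fold the culture mean. The culture value rests on 24 reads over 4 libraries.

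**Figure D1:**
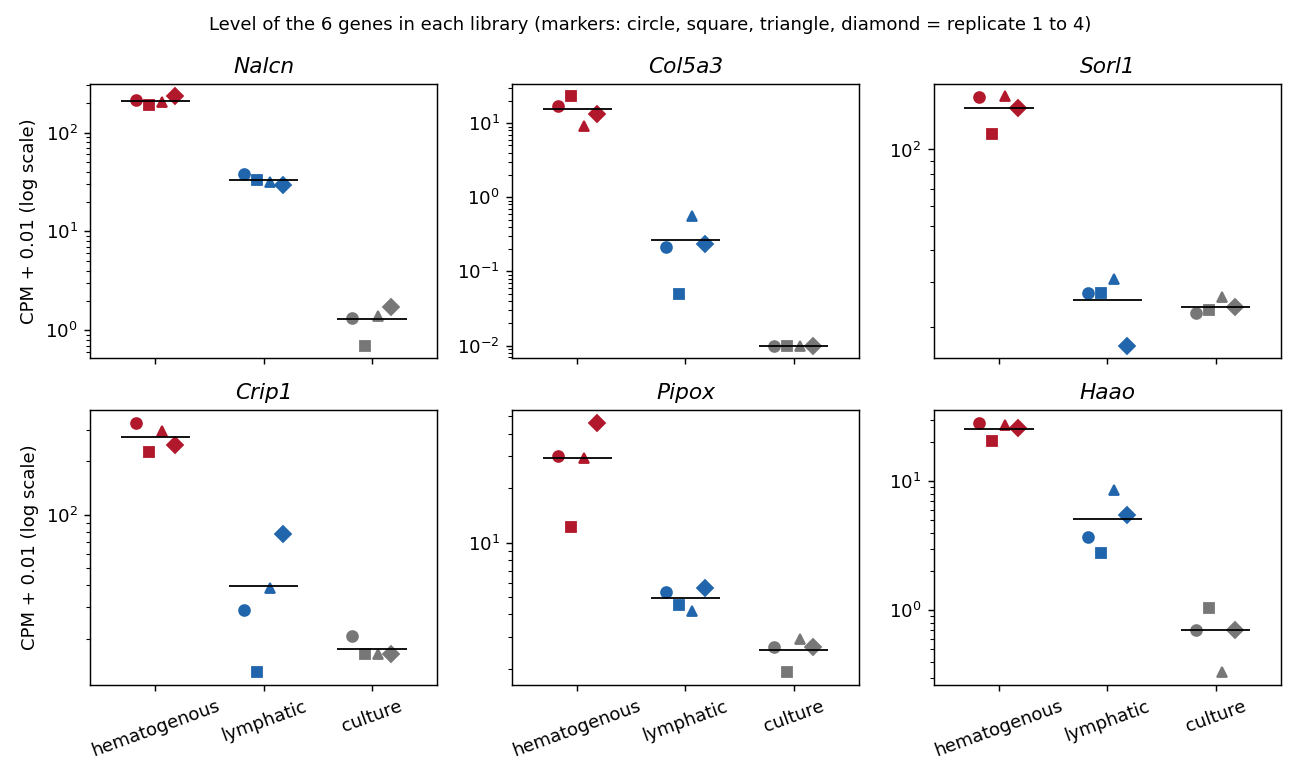
Level of the 6 genes in each library, in TMM-scaled CPM on a log axis, with hematogenous, lymphatic and culture libraries from left to right; each value is drawn with 0.01 CPM added, points are libraries and bars are group means. Every hematogenous library lies above every lymphatic library for all 6 genes, and Sorl1 and Crip1 overlap between lymphatic and culture libraries.

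For all 6 genes no hematogenous library overlapped with a lymphatic or a culture library. The same held for 22 of the 26 genes that met the rule at a hematogenous mean of at least 10 CPM. The share of all genes tested without such overlap was not counted, and the shares called, given next, are another measure. In the fit of all 12 libraries 22.3% of all genes tested were called between hematogenous and lymphatic libraries, with 10.9% of all called higher. Between hematogenous and culture libraries 27.8% were called, with 13.9% of all called higher. Since the rule used these levels, nothing is read from the members' count. A call is an adjusted p below 0.05 in the quasi-likelihood test of edgeR with Benjamini-Hochberg adjustment over all 13535 genes. The number called between hematogenous and lymphatic libraries was 3012, and 2002 without hematogenous library 1; the number between hematogenous and culture was 3760, and 5931 without lymphatic library 4. Between lymphatic and culture libraries the groups were apart for 4 members, Nalcn, Col5a3, Pipox and Haao, all higher in lymphatic libraries. For Col5a3 this rests on 1 read in lymphatic library 2 against 0 in the less deeply sequenced culture group. The share of all genes apart between these groups was not counted. By the other measure, 13.4% of all genes tested were called higher in lymphatic than in culture libraries.

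The 6 genes thus fall into different orders across the study. Nalcn, Col5a3, Pipox and Haao were highest in hematogenous, lower in lymphatic and lowest in culture libraries, by steps of unequal size. The lymphatic level relative to culture was 1.94-fold for Pipox, 7.44-fold for Haao and 25.9-fold for Nalcn; for Col5a3, with no culture read, only the bound given above is known. For Sorl1 and Crip1 the lymphatic and culture libraries overlapped.

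Among hematogenous libraries the 6 genes also differed in their spread. Hematogenous library 2 was the lowest of the 4 for 5 members, Nalcn, Sorl1, Crip1, Pipox and Haao, but the highest for Col5a3, for which library 3 was lowest. The ratio of the highest to the lowest hematogenous library was 1.23 for Nalcn, 1.39 for Haao, 1.41 for Sorl1, 1.46 for Crip1, 2.53 for Col5a3 and 3.78 for Pipox. Across the 12 libraries, Pearson's r between the log2 levels of 2 members ran from 0.779 for Nalcn with Sorl1 to 0.958 for Col5a3 with Crip1. These r share the group differences that the rule selected and are a description only.

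By log2 difference between hematogenous and lymphatic libraries, the 6 genes ranked 1st (Col5a3), 24th (Crip1), 34th (Nalcn), 37th (Pipox), 40th (Sorl1) and 55th (Haao) of the genes tested. At a hematogenous mean of at least 10 CPM, 26 genes met the rule. Genes with only an ID or a Gm, Rik or -ps name were left out when naming those nearest its threshold. Those just inside it were H2-DMa, an MHC class II loading gene, at 4.01-fold, Tspyl3 at 4.09-fold and Rtkn2 at 4.18-fold. Those just outside were Tmem154 at 3.92-fold, Csf2rb, a cytokine receptor chain, at 3.89-fold, and Cd74, the MHC class II invariant chain, at 3.83-fold. The number of genes meeting the rule was 81, or 122 without lymphatic library 4. All 6 members met it with each library left out in turn.

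**Figure D2:**
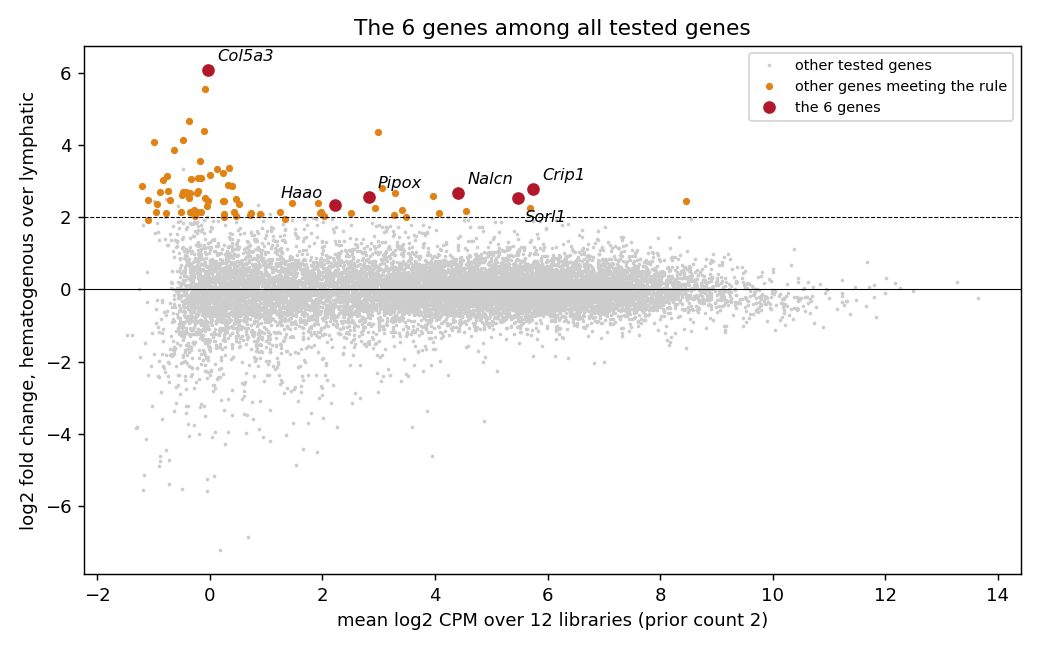
Difference between hematogenous and lymphatic libraries (log2 of the fitted fold change, vertical) against mean level over the 12 libraries (log2 CPM, horizontal) for 13535 genes tested, with the 6 members named and the dashed line at 4-fold. Col5a3 is the highest point at 6.08, and the other 5 members lie between 2.33 and 2.79; the rule itself used ratios of mean CPM, so a few genes that meet it lie just under the line.

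The partner genes of the 6 products, 185 in 15 lists, were not used by the rule and were tested in the same fit. Of these, 100 had enough counts for a test. Between hematogenous and lymphatic libraries 12 were called higher and 18 lower, 30% of those tested beside 22.3% of all genes, with a median log2 difference of -0.11 beside -0.032 over all genes. Between hematogenous and culture libraries 17 were called higher and 28 lower, 45% beside 27.8%, with a median of -0.15. Between lymphatic and culture libraries 19 were called higher and 19 lower, 38% beside 26.4% of all genes, with a median of -0.023. Each count below is read against those backgrounds, and p-values are edgeR's, adjusted over all genes tested.

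The accessory subunits of the NALCN channel had few or no reads. Over all libraries of a group, Unc79 had 1, 1 and 7 reads in hematogenous, lymphatic and culture libraries, Unc80 had 0, 0 and 7, and Nalf1, listed under its older name Fam155a, had 0, 1 and 10. None of these 3 subunits had enough counts for a test, while Nalcn had 8250, 2332 and 49 reads in the same groups. At this depth the level that 3 reads would give is 0.0752 CPM in the hematogenous, 0.0426 CPM in the lymphatic and 0.0818 CPM in the culture group. Read sums, here and below, are not scaled to depth, so they overstate the lymphatic level beside the other groups.

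Of the 19 listed voltage-gated sodium and calcium channel pores, relatives of NALCN with the same layout of domains, 8 were tested. Between hematogenous and lymphatic libraries 2 were called higher and 1 lower. Scn4a, the sodium channel pore of skeletal muscle, averaged 10.3 ± 2.25 CPM in hematogenous and 4.48 ± 2.24 CPM in lymphatic libraries (SD, n = 4 each), a log2 difference of 1.22 ± 0.29 (SE, edgeR adjusted p = 0.00879). The call in the other direction was Scn8a, a neuronal sodium channel pore, at 0.391 ± 0.317 CPM in hematogenous and 1.93 ± 0.656 CPM in lymphatic libraries (SD, n = 4 each; log2 -2.08 ± 0.425, edgeR adjusted p = 0.00362). Against culture, 4 were called higher and 3 lower in hematogenous libraries, in both directions by large steps. Scn8a averaged 0.391 CPM in hematogenous and 12.9 CPM in culture libraries (log2 -4.84 ± 0.402, edgeR adjusted p = 7.84e-07), and Cacna1d, a calcium channel pore, 6.40 and 38.3 CPM (log2 -2.59). Cacna1e, another calcium channel pore, averaged 11.9 CPM in hematogenous and 2.47 CPM in culture libraries (log2 2.25 ± 0.405, edgeR adjusted p = 0.000786), and it was also higher in lymphatic than in culture libraries, at 21.1 and 2.47 CPM.

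The chains that assemble with COL5A3 in type V collagen were not seen at a level that could be tested: Col5a1 had 1, 0 and 1 reads and Col5a2 had 0, 1 and 5 reads in hematogenous, lymphatic and culture libraries. Of the 10 other fibrillar collagen genes listed, 2 were tested, and between hematogenous and lymphatic libraries none was called higher and 1 lower. That gene, Col27a1, averaged 4.73 ± 0.406 CPM in hematogenous, 9.32 ± 4.76 CPM in lymphatic and 16.3 ± 4.21 CPM in culture libraries (SD, n = 4 each), so its means ran in the opposite order to those of Col5a3, although lymphatic and culture libraries were not called apart (edgeR adjusted p = 0.0536). It was called lower in hematogenous than in lymphatic libraries (log2 -0.98 ± 0.307, edgeR adjusted p = 0.0362), a call lost without any 1 of the hematogenous libraries and, at a log2 difference of -0.59, without lymphatic library 3. It was also called lower than in culture (log2 -1.79, edgeR adjusted p = 0.000594). The chains of the abundant fibrillar collagens were close to 0, with 0, 7 and 5 reads for Col1a1, 1, 3 and 3 for Col1a2 and 0, 0 and 2 for Col3a1. Serpinh1, the collagen chaperone HSP47, had no read in any library. These transcripts mark fibroblasts, and other fibroblast and stromal markers were also low: the 10 summed to 1.52 to 3.86 CPM in hematogenous, 2.63 to 14.6 CPM in lymphatic and 0 to 1.18 CPM in culture libraries, and 6 of the 10, Pdgfra, Pdgfrb, Dcn, Lum, Pdpn and Ccl19, had no read in the hematogenous group. Their sum averaged 2.80 ± 1.02 CPM in hematogenous and 7.05 ± 5.26 CPM in lymphatic libraries (SD, n = 4 each), and most of the lymphatic sum is Thy1, which T cells also express, at 63, 476 and 3 reads in hematogenous, lymphatic and culture libraries. Fn1, the fibronectin gene, ran the other way, with 53, 14 and 9 reads. The part of stromal cells in the Col5a3 level was not tested beyond these values.

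Of the 22 listed collagen assembly and crosslinking genes, 8 were tested, and 1 was called higher and 3 lower in hematogenous than in lymphatic libraries. P4ha1, the catalytic subunit of collagen prolyl hydroxylase, had 25.6, 30.3, 26.0 and 25.4 CPM in hematogenous libraries 1 to 4, against 82.9, 121, 93.8 and 90.0 CPM in the lymphatic ones. Every hematogenous library was thus far below every lymphatic one. P4ha1 fell by 1.85 ± 0.129 on the log2 scale (SE, edgeR adjusted p = 1.9e-06), and fell by 2.30 ± 0.131 against culture (edgeR adjusted p = 2.63e-08), where it averaged 132 ± 7.16 CPM (SD, n = 4). Plod3, a lysyl hydroxylase that also attaches sugars to collagen, averaged 15.3 CPM in hematogenous and 26.6 CPM in lymphatic libraries (log2 -0.79 ± 0.149, edgeR adjusted p = 0.00234). The call in the other direction was Adamts14, a protease that trims procollagen, at 3.52 ± 1.45 CPM in hematogenous and 0.336 ± 0.151 CPM in lymphatic libraries (SD, n = 4 each; log2 3.34 ± 0.394, edgeR adjusted p = 9.8e-05), and it is named here after its values were seen.

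Of the 9 collagen receptors 4 were tested, and 1 was called higher and 1 lower in hematogenous than in lymphatic libraries. Itga1, the alpha chain of a collagen-binding integrin, had 19.6, 17.3, 14.8 and 18.8 CPM in hematogenous libraries 1 to 4, against 4.99, 6.05, 6.77 and 2.75 CPM in lymphatic ones. The groups did not overlap, and the log2 difference was 1.78 ± 0.224 (SE, edgeR adjusted p = 0.000148). Culture cells had the highest level, 29.9 ± 3.15 CPM (SD, n = 4), so that Itga1, unlike the 6 members, was lowest in the lymphatic group. Itga10, a related alpha chain, averaged 4.39 CPM in hematogenous and 8.63 CPM in lymphatic libraries (log2 -0.96 ± 0.197, edgeR adjusted p = 0.00363). Itgb1, the beta chain that pairs with both, averaged 180 ± 6.64 and 200 ± 37.5 CPM and was not called (SD, n = 4 each; edgeR adjusted p = 0.388).

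None of the tested sortilin relatives of SORL1 was called between hematogenous and lymphatic libraries. Of this family, Sort1 and Sorcs2 were tested, while Sorcs1 and Sorcs3 had at most 6 reads in any group. Sort1, the sortilin receptor, was lower in both lymph node groups: it averaged 1.59 ± 0.905 CPM in hematogenous and 10.6 ± 1.36 CPM in culture libraries (SD, n = 4 each; log2 -2.73 ± 0.425, edgeR adjusted p = 0.000244), and 1.26 ± 0.639 CPM in lymphatic libraries (log2 -3.08 ± 0.416 against culture, edgeR adjusted p = 0.000102). Of the lipoprotein receptor family 6 were tested, and 1, Lrp10, was called between hematogenous and lymphatic libraries, at 54.5 and 36.2 CPM (log2 0.60 ± 0.189, edgeR adjusted p = 0.0372). That call was lost without lymphatic library 2, at an edgeR adjusted p of 0.0564, and under other settings.

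All 20 genes of retromer and of sorting between the Golgi and endosomes, the machinery through which SORL1 cycles, had enough counts for a test. Between hematogenous and lymphatic libraries 3 were called higher and 4 lower, so the list did not move one way. The 3 higher were adaptor genes. Gga2, an adaptor that recognises sorting receptors at the Golgi, had 168, 179, 166 and 146 CPM in hematogenous libraries 1 to 4, against 96.4, 81.6, 110 and 64.1 CPM in lymphatic ones (log2 0.91 ± 0.144, edgeR adjusted p = 0.000722). The groups did not overlap. Ap1b1 and Ap1m1, large and medium subunits of the AP-1 adaptor, were also called higher, by 0.68 ± 0.138 (edgeR adjusted p = 0.00353) and 0.37 ± 0.0974 on the log2 scale (SE, edgeR adjusted p = 0.0153). Of the same adaptor, the small subunit gene Ap1s1 was called lower, with a log2 difference of -0.65 ± 0.171 (edgeR adjusted p = 0.0149). The other genes called lower were Vps29 and Vps26b, which encode retromer subunits, and Snx6, a sorting nexin. Vps29 averaged 54.4 ± 5.64 CPM in hematogenous and 91.9 ± 19.1 CPM in lymphatic libraries (SD, n = 4 each; log2 -0.76 ± 0.144, edgeR adjusted p = 0.00234).

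Among 11 ligands of SORL1, 6 were tested and 1 was called between hematogenous and lymphatic libraries. Gfra1, a receptor for the growth factor GDNF, averaged 4.45 ± 0.89 CPM in hematogenous and 10.4 ± 4.49 CPM in lymphatic libraries (SD, n = 4 each; log2 -1.24 ± 0.321, edgeR adjusted p = 0.014), a call lost without hematogenous library 1 (edgeR adjusted p = 0.0556). App, the amyloid precursor whose transport is the best known task of SORL1, had 21, 67 and 1 reads in hematogenous, lymphatic and culture libraries and was not tested. Insr, the insulin receptor, averaged 28.3 ± 4.03 CPM in hematogenous and 25.3 ± 8.01 CPM in lymphatic libraries (SD, n = 4 each) and was not called (edgeR adjusted p = 0.623).

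No close relative of CRIP1 was called between hematogenous and lymphatic libraries. Of the 5 listed CRP and CRIP proteins, Crip2, Csrp1 and Csrp2 were tested. Crip2, whose gene lies near Crip1, averaged 0.876 ± 0.263 CPM in hematogenous and 0.971 ± 0.530 CPM in lymphatic libraries (SD, n = 4 each; log2 -0.11 ± 0.554, edgeR adjusted p = 0.91). Against culture, Csrp1 and Csrp2, muscle-type LIM proteins, were called lower in hematogenous libraries, at 49.0 against 89.1 CPM (log2 -0.86 ± 0.135, edgeR adjusted p = 0.000269) and 42.8 against 92.5 CPM (log2 -1.11 ± 0.207, edgeR adjusted p = 0.00103). Among 13 other small LIM proteins, 6 were tested, and 1 was called higher and 1 lower in hematogenous than in lymphatic libraries. Lasp1, an actin-binding LIM protein, averaged 45.8 ± 10.6 CPM in hematogenous and 22.6 ± 5.76 CPM in lymphatic libraries (SD, n = 4 each; log2 1.02 ± 0.187, edgeR adjusted p = 0.00182). Lmo2, a transcriptional cofactor, was called lower in hematogenous than in culture libraries, at 44.6 and 130 CPM (log2 -1.55).

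**Figure D3:**
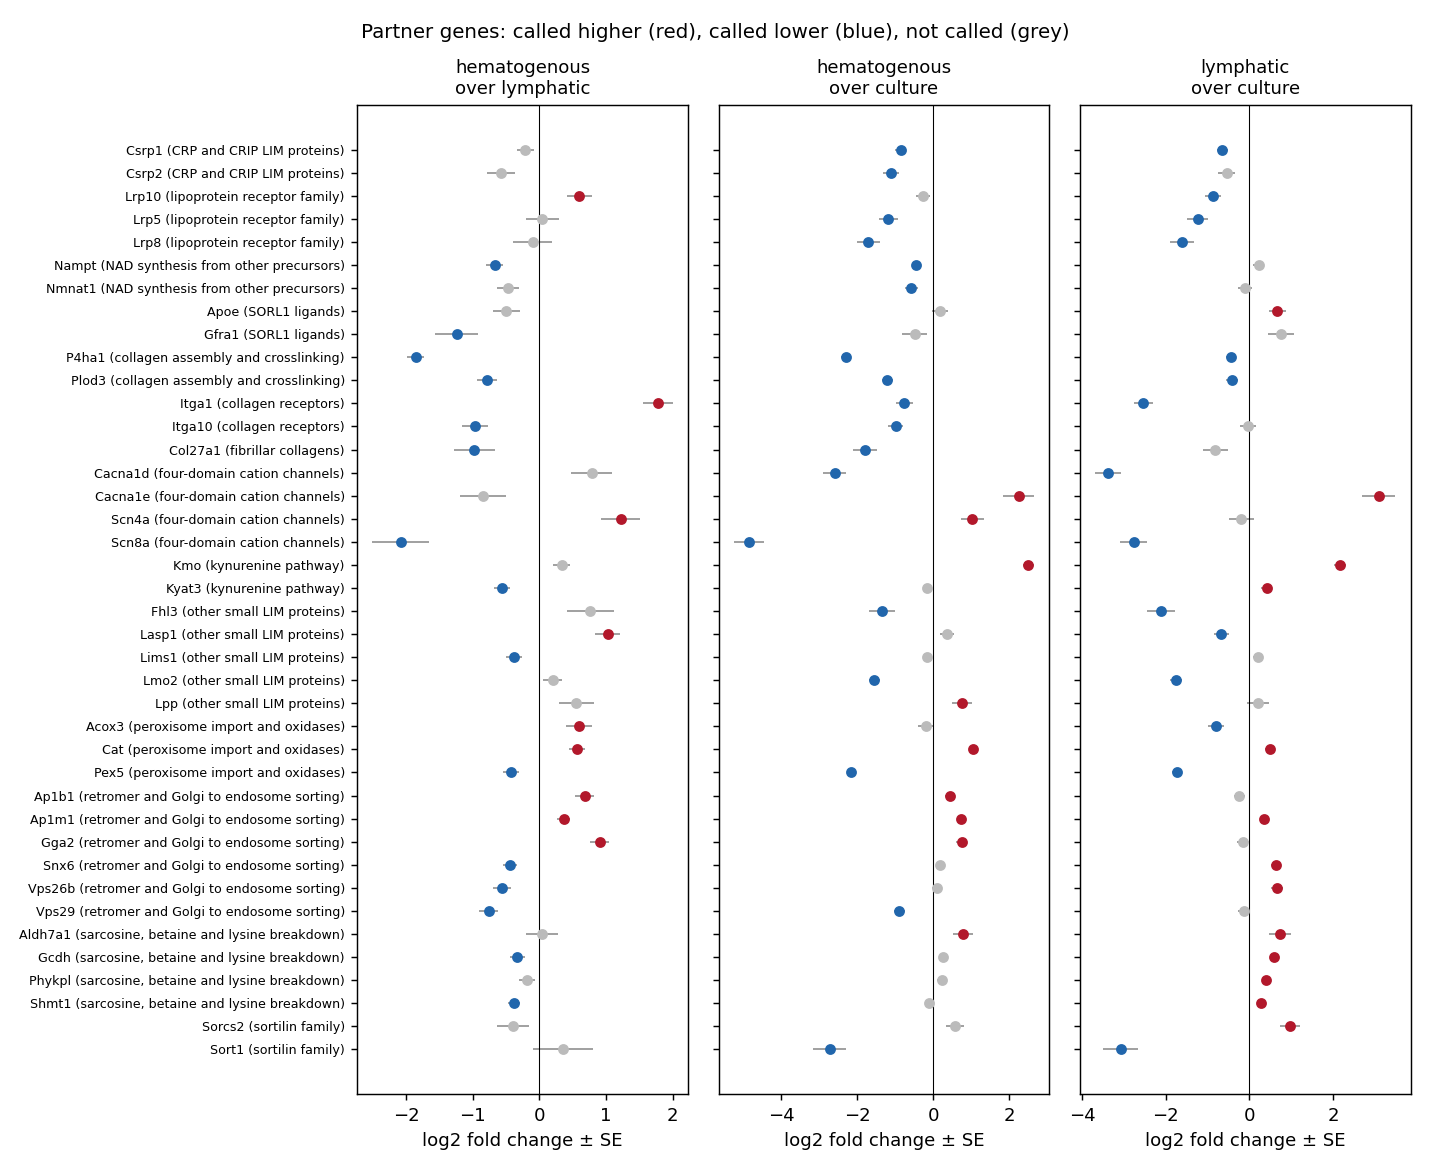
Difference between hematogenous and lymphatic libraries (log2 of the fitted fold change, horizontal) in the left panel for partner genes named by the rule, with its list in brackets; the 2 other panels show hematogenous over culture and lymphatic over culture libraries on scales of their own; bars are SE, red points are called higher, blue points called lower and grey points not called. The strongest shift to the right in the hematogenous over lymphatic panel is Itga1 at 1.78, and P4ha1 at -1.85 and Scn8a at -2.08 lie farthest to the left.

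The enzymes around PIPOX in sarcosine and lysine breakdown were mostly at very low counts, with 5 of 16 tested. Sardh and Dmgdh, the mitochondrial dehydrogenases of sarcosine and dimethylglycine, had 2, 6 and 0 and 0, 0 and 2 reads in hematogenous, lymphatic and culture libraries. Gnmt, which makes sarcosine, had 28, 70 and 9 reads, and Aass, the first enzyme of the other lysine route, had 0, 0 and 1. Between hematogenous and lymphatic libraries none was called higher and 2 were called lower, Shmt1 and Gcdh. Shmt1, the cytosolic serine hydroxymethyltransferase, averaged 180 ± 15.6 and 234 ± 6.48 CPM (SD, n = 4 each; log2 -0.38 ± 0.0898, edgeR adjusted p = 0.00884), and the call was lost with no filter on low counts (edgeR adjusted p = 0.0986). Gcdh, a mitochondrial enzyme of lysine breakdown, was near the threshold (log2 -0.33, edgeR adjusted p = 0.049) and lost its call under most settings. Between lymphatic and culture libraries 4 of the 5 were called higher and none lower. Of these calls, that of Aldh7a1 (edgeR adjusted p = 0.0466) was lost in 10 of 17 alternative settings. That of Phykpl (edgeR adjusted p = 0.0206) was lost in 6 of the 17.

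Of 21 genes of peroxisome import and peroxisomal oxidases, the compartment of PIPOX, 17 were tested, and 3 were called higher and 1 lower in hematogenous than in lymphatic libraries. Cat, the catalase that breaks down hydrogen peroxide, averaged 222 ± 18.3 CPM in hematogenous and 149 ± 23.6 CPM in lymphatic libraries (SD, n = 4 each; log2 0.57 ± 0.118, edgeR adjusted p = 0.00383), and it was also higher than in culture, by 1.05 on the log2 scale (edgeR adjusted p = 1.45e-05). The call in the other direction was Pex5, the receptor that carries proteins into peroxisomes, at 46.2 ± 2.96 CPM in hematogenous and 62.1 ± 10.3 CPM in lymphatic libraries (SD, n = 4 each; log2 -0.42 ± 0.119, edgeR adjusted p = 0.0214). Acox3, an acyl-CoA oxidase, averaged 27.6 and 18.3 CPM (log2 0.60, edgeR adjusted p = 0.0397), a call lost under most settings. Pex5 was also lower in hematogenous than in culture libraries, where it averaged 206 ± 7.94 CPM (SD, n = 4; log2 -2.15 ± 0.123, edgeR adjusted p = 2.89e-08).

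In the kynurenine pathway of HAAO, the entry enzymes had few or no reads. Ido1 had no read in any library, Ido2 had 0, 1 and 4 reads and Tdo2 had 13, 35 and 10 reads in hematogenous, lymphatic and culture libraries. Scaled to depth, Tdo2 averaged 0.388, 0.494 and 0.285 CPM in the same order. Kmo, which makes the hydroxylated kynurenine upstream of HAAO, had 44.8, 45.7, 53.8 and 44.9 CPM in hematogenous libraries 1 to 4, 37.2, 43.7, 37.4 and 31.3 CPM in lymphatic libraries, and 8.07, 7.28, 9.12 and 8.85 CPM in culture. Both lymph node groups were well above culture (log2 2.50 ± 0.141, edgeR adjusted p = 2.48e-08 for hematogenous, and 2.16 ± 0.139, edgeR adjusted p = 1.53e-07 for lymphatic), while the difference between them, 0.34, was not called (edgeR adjusted p = 0.0716). Kynu, which makes the substrate of HAAO, averaged 0.208 ± 0.261 CPM in hematogenous and 0.666 ± 0.429 CPM in lymphatic libraries (SD, n = 4 each) and was not called (edgeR adjusted p = 0.113).

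Downstream of HAAO, Qprt, which carries quinolinate on toward NAD, had 28, 59 and 11 reads in hematogenous, lymphatic and culture libraries, and Acmsd, which diverts its precursor, had 1, 9 and 0. Scaled to depth, Qprt averaged 0.695, 0.843 and 0.319 CPM in the same order. Kyat3, a side-branch aminotransferase that makes kynurenate, was the 1 pathway gene called between hematogenous and lymphatic libraries, at 37.1 ± 2.23 and 54.8 ± 7.38 CPM (SD, n = 4 each; log2 -0.56 ± 0.12, edgeR adjusted p = 0.00471). Of the 10 listed genes that make NAD from other precursors 8 were tested, of which none was called higher and 2 lower in hematogenous than in lymphatic libraries. Nampt, the rate-limiting enzyme of NAD salvage, averaged 137 ± 8.07 CPM in hematogenous and 218 ± 43.2 CPM in lymphatic libraries (SD, n = 4 each; log2 -0.67 ± 0.127, edgeR adjusted p = 0.00228).

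Genes that lie next to the 6 members were looked up by their order in RefSeq, 3 protein-coding genes on each side. Of 31 neighbours matched to the files 18 were tested, and 3 were called higher and 1 lower in hematogenous than in lymphatic libraries. That is 22.2% of those tested, beside 22.3% of all genes, a share close to the background. Both genes that flank Haao were among the 3 called higher. Mta3, a subunit of the NuRD chromatin remodelling complex, averaged 25.8 ± 1.33 CPM in hematogenous, 10.4 ± 2.01 CPM in lymphatic and 3.62 ± 0.838 CPM in culture libraries (SD, n = 4 each), with log2 differences of 1.32 ± 0.168 between hematogenous and lymphatic (edgeR adjusted p = 0.000163) and 1.54 ± 0.186 between lymphatic and culture libraries (edgeR adjusted p = 4.04e-05). Zfp36l2, on the other side, which encodes an RNA-binding protein that promotes mRNA decay, averaged 301 ± 79.0 CPM in hematogenous and 146 ± 14.4 CPM in lymphatic libraries (SD, n = 4 each; log2 1.04 ± 0.16, edgeR adjusted p = 0.000581). Tedc1 beside Crip1 was called at 0.44 ± 0.147 (edgeR adjusted p = 0.0465) and Dhrs13 near Pipox at -0.79 ± 0.258 (edgeR adjusted p = 0.042), and both calls were lost under most settings.

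No tested neighbour of Nalcn, Col5a3 or Sorl1 was called between these groups. Around Nalcn, Ggact and Tmtc4 differed by 0.11 and -0.26 between hematogenous and lymphatic libraries on the log2 scale, and Itgbl1 and Fgf14 had no read in those groups. Next to Sorl1, Sc5d, an enzyme of cholesterol synthesis, differed by 0.011 ± 0.124 (SE, edgeR adjusted p = 0.964) between these groups but fell by 2.21 ± 0.128 against culture (edgeR adjusted p = 3.15e-08). Near Col5a3, the tested neighbours included Ubl5 and Angptl6.

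The tested genes whose log2 levels were most like those of each member over the 12 libraries, by Pearson's r, share the group differences with it and are given as a description. For Nalcn they were Tmem154 at 0.994, Ms4a1, which encodes the B cell surface protein CD20, at 0.991, the gene with the ID ENSMUSG00000119964.1 at 0.990, Parvg at 0.988 and Gm5424 at 0.987. For Haao they were its neighbour Mta3 at 0.991, Ap1m1 at 0.990, Tep1 at 0.989, and the MHC class II genes H2-DMb2 at 0.988 and Cd74 at 0.986. For Sorl1 the closest was Cpt1a, the gatekeeper of mitochondrial fatty acid oxidation, at 0.984, ahead of Fam172a, Gfod1, Arhgap29 and Neurl1b. Col5a3 was closest to Spib, a B cell transcription factor, at 0.984, then to Galnt14, Enpep, Tpm3 and 5031439G07Rik. Crip1 was closest to Rac2, a GTPase of blood cells, at 0.988, then to AB124611, Spint2, Ckap4 and Tmsb10, and Pipox to Atxn10 at 0.986, then to 4930579M01Rik, Dazap2, Apobec1 and Dusp6.

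The libraries held between 5286775 and 12444690 assigned reads in the hematogenous group, 12399951 and 25302016 in the lymphatic group and 5655422 and 12738568 in culture. All 10 B cell markers had enough counts for a test, and they summed to 5211 to 5833 CPM in hematogenous, 2693 to 3608 CPM in lymphatic and 2742 to 2819 CPM in culture libraries. Cd74 averaged 1731, 452 and 72.4 CPM in the same order, a large part of the difference between the hematogenous and lymphatic sums. Between these 2 groups 6 of the 10 were called higher and 1 lower, beside 10.9% and 11.4% of all genes tested. Ms4a1 was low in culture, at 0.786 CPM. The 13 T cell markers summed to 35.3 to 48.0 CPM in hematogenous, 37.1 to 124 CPM in lymphatic and 5.36 to 8.05 CPM in culture libraries, and 11 of the 13 were called lower in hematogenous than in lymphatic libraries. Most of the hematogenous and culture sums is Lck, with 1215, 1376 and 219 reads in hematogenous, lymphatic and culture libraries. Trbc2, the next in the lymphatic group, had 54, 570 and 0 reads, so the sums understate the contrast in the other markers. These reads are not scaled to depth: 3 reads over a group are 0.0752 CPM in hematogenous but 0.0426 CPM in lymphatic libraries. Read sums thus overstate the lymphatic level, for Lck as for Trbc2. Macrophage and monocyte markers summed to 19.7 to 27.0 CPM in hematogenous, 28.4 to 72.1 CPM in lymphatic and 15.1 to 20.3 CPM in culture libraries. These sums mix opposite directions. Lyz2 had 497, 2084 and 0 reads in hematogenous, lymphatic and culture libraries, and C1qa, C1qb, C1qc and Fcgr1 also had no read in culture. Csf1r had 64, 272 and 325 reads and Itgam had 30, 40 and 184 reads in the same order. Endothelial markers summed to 139 to 168 CPM in hematogenous, 80.7 to 115 CPM in lymphatic and 77.7 to 80.9 CPM in culture libraries, and the listed genes Lyve1, Prox1 and Flt4 had no read in the hematogenous group. Nearly all of that sum is Pecam1, which blood cells also express, at 136 to 163 CPM in hematogenous, 79.2 to 114 CPM in lymphatic and 72.6 to 78.4 CPM in culture libraries. Cdh5, also on this list, had 146, 95 and 68 reads in hematogenous, lymphatic and culture libraries. Of the 8 endothelial markers 2 were tested, and both were called higher in hematogenous than in lymphatic libraries. The part of endothelial cells in the levels of the 6 genes was not tested. Of the hepatocyte and kidney tubule markers, tissues that express Pipox and Haao, Alb, Apoa1, Ttr, Cyp2e1 and Miox had no read in the hematogenous group, and the list summed to 4.79 to 9.61 CPM in hematogenous, 2.83 to 3.86 CPM in lymphatic and 2.68 to 4.33 CPM in culture libraries. Slc34a1, a phosphate transporter of the kidney tubule, had 0.672 to 1.52 CPM in hematogenous and at most 0.112 CPM in lymphatic libraries, and Lrp2, another tubule gene, had 42 of its 44 hematogenous reads in library 1. Pipox and Haao had 30.1 and 28.4 CPM in that library, beside 29.2 and 27.1 CPM in library 3, where Lrp2 had 1 read. The part of such cells in their levels was not tested. Neural and Schwann cell markers, of interest beside Nalcn, summed to 6.65 to 9.86 CPM in hematogenous, 12.8 to 29.7 CPM in lymphatic and 9.47 to 12.5 CPM in culture libraries, with Snap25, Syt1, Rbfox3 and S100b at 0 in the hematogenous group. In bulk samples, more cells with a transcript and more transcript per cell cannot be told apart, and this holds for each of the 6 genes.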

How the data were processed

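Bulk poly(A) RNA-seq gave 12 libraries, grouped by title into hematogenous, lymphatic and culture, 4 each. The tissue label of the culture libraries also reads lymph node, and the titles were followed. Sequencing was single-end and stranded according to the labels' protocols. Reads were processed with FastQC 0.11.9, Trimmomatic 0.39, HISAT2 2.1.0 and HTSeq 2.0.2 on GRCm39, per the submitters' processing notes. The files the authors deposited hold raw counts per gene, without normalization, for 56748 Ensembl IDs. Gene symbols and exon lengths came from GENCODE vM21, an older annotation, in which 91.8% of IDs and at least 98.8% of the counts of each library had a symbol. Reads that were given no gene, 30.3% to 36.5% per library in 5 closing lines, did not enter library sizes or tests.

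All 12 libraries were fitted on group with edgeR 4.0.16 in R 4.3.3 (TMM, filterByExpr with 13535 genes kept, quasi-likelihood F test, 9 residual degrees of freedom, Benjamini-Hochberg adjustment, threshold 0.05). SE is the log2 difference over the square root of F. Tests were checked on simulated data. DESeq2 1.42.0 was an alternative, as were DESeq2 size factors, no filter, a replicate block, 8 libraries only and leaving out each library. Molecular identifiers were not used, so floors of 3 counts cover counting error only.

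The 6 members, the lists and the tests were chosen with earlier results of these data known. Named beside the members were, for each comparison and list, up to 3 called genes with the largest log2 difference at a mean of at least 5 CPM in the higher group, the 5 genes most correlated with each member (log2 CPM, prior count 2), and the 3 protein-coding neighbours on each side. Other genes, such as those near 0, are named from the lists after their values were seen. One listed name, Nalf2, was not matched and is not analysed here. A few listed genes are not reported here by name.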

Additional observations from a re-analysis of the deposited data

Results flagged for a closer look

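Groups of 4 libraries were screened for 1 library far from the other 3, and 11 of 165 groups were singled out, while chance gives about 1 in 20. Among the members, Crip1 was singled out in culture library 1, at 20.7 CPM, where the other culture libraries had 16.3 to 16.5 CPM. In the hematogenous group the partner genes singled out were P4ha1 in library 2 at 30.3 CPM, Scn4a in library 1 at 13.6 CPM, Kmo in library 3 at 53.8 CPM and Shmt1 in library 2 at 204 CPM. The same group gave Phykpl in library 4 at 57.6 CPM, Gfra1 in library 1 at 3.12 CPM and Sorcs2 in library 1 at 42.7 CPM. In the lymphatic group, Csrp2 had 103 CPM in library 4, where the others had at most 54.3 CPM, and Lrp10 had 22.9 CPM in library 2. Itga1 had 25.1 CPM in culture library 1. No cause was tested for any of these values.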

How the results depend on the processing

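All 6 members met the rule under the 14 alternatives that recompute levels. In the settings run, only 1 of their differences changed direction, that of Sorl1 between lymphatic and culture libraries, which ranged from -0.016 without lymphatic library 3 to 0.23 without lymphatic library 4. Genes meeting the rule numbered 1634 with no filter on low counts, where genes with few reads enter, and 81 to 122 with 1 library left out. With the 8 libraries of a comparison alone, genes called numbered 1734 between hematogenous and lymphatic and 6344 between hematogenous and culture libraries, and partner genes called between lymphatic and culture numbered 25. The cause was not tested. With 1 library left out, genes called ranged over 2002 to 4333 between hematogenous and lymphatic, 3125 to 5931 between hematogenous and culture and 2664 to 4908 between lymphatic and culture libraries, and partner genes called over 21 to 41, 33 to 58 and 29 to 47. DESeq2 called 3555, 4061 and 3993 genes. Same-numbered libraries did not deviate together, with correlations of -0.181 to 0.0919, so the numbers were not taken to pair them. With the replicate number as a block 2309, 3341 and 2961 genes and 22, 37 and 30 partner genes were called. The calls picked by size for each list, and those of neighbours, were followed through the alternatives. Of these, 15 of 24 between hematogenous and lymphatic libraries held under every alternative. The same was true of 27 of 33 between hematogenous and culture and 22 of 29 between lymphatic and culture libraries. The hematogenous against lymphatic calls of Scn8a, Adamts14, Ap1m1, Ap1s1, Vps26b, Snx6 and Pex5 were not among those followed. The lymphatic Col5a3 level, at most 7 reads in a library, is limited by depth.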

Other observations

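Other genes met the same rule at a hematogenous mean of at least 10 CPM and are given as values, with no test. Ltbp2, which encodes a protein of elastic fibres, averaged 11.0 CPM in hematogenous, 0.250 CPM in lymphatic and 0.0843 CPM in culture libraries. Its ratio of hematogenous to lymphatic was 44.0-fold, the next largest after Col5a3 among the 25 such genes ranked. Genes with only an ID or a Gm, Rik or -ps name were left out of that ranking. Pcp4, a calmodulin-binding peptide, averaged 22.3, 1.09 and 18.5 CPM in the same order, so it was low in the lymphatic group rather than high in the hematogenous one alone. Fosl2, an AP-1 factor, averaged 30.1, 4.23 and 5.67 CPM.

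Among B cell genes, Ighd, the heavy chain of IgD, averaged 883, 160 and 314 CPM in hematogenous, lymphatic and culture libraries, Ms4a1 averaged 78.7, 17.1 and 0.786 CPM, and H2-DMb2 114, 19.2 and 1.84 CPM. Cpt1a averaged 159, 33.3 and 27.8 CPM, and Pex11a, which drives peroxisome division, 21.8, 4.52 and 5.53 CPM.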
